A study of Mus musculus with 12 samples.

Results

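Immediate early genes were compared between dopaminergic neurons of the substantia nigra pars compacta (SNpc) and of the ventral tegmental area (VTA) in C57BL/6 mice. The set held 10 genes, Fos, Fosb, Junb, Egr1, Arc, Npas4, Nr4a1, Nr4a3, Ier2 and Dusp1, each found as the row of the deposited count table with that symbol, out of 23079 genes in the table. All 10 had enough reads to be tested among the 15685 genes that passed the count filter. The labels call the libraries TRAP samples, read here as translating ribosome affinity purification, which pulls down the ribosome-bound RNA of a tagged cell type. The labels do not name the transgene or its promoter, the age and number of mice behind a library, or any treatment, so what limits the tagged cells as a model is not known here. The table has 6 columns for each region. SNpc columns 4 and 5 held identical counts, as did VTA columns 2 and 3, so each such pair was counted as 1 library and 5 libraries per region remained.

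Immediate early genes are transcribed within minutes of a stimulus, before any new protein has to be made. In neurons the trigger is usually synaptic input or firing, and calcium, cAMP and MAP kinase signals reach the promoters through factors such as CREB and SRF that are already bound there. Most of the transcripts are short-lived, so their level follows the recent activity of a cell. Fos, Fosb and Junb encode subunits of the dimeric transcription factor AP-1. Egr1 encodes a zinc finger factor, Npas4 a bHLH-PAS factor that responds selectively to calcium entry, and Nr4a1 and Nr4a3 orphan nuclear receptors related to Nr4a2, a factor that specifies dopaminergic neurons. Arc encodes a cytoskeleton-associated protein that drives AMPA receptor endocytosis at synapses, and Dusp1 a phosphatase that switches MAP kinases off. Ier2 encodes a nuclear protein of the early growth response.

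The promoters show what these genes share in sequence. RefSeq start sites on GRCm38.p6 were available for 7 of the 10 genes, and the 250 bases upstream of each start were searched on both strands. The core of the cAMP response element (CRE), TGACG, which CREB binds, was present in all 7, against 17.9% of 27025 promoters in the same table and 25.8% of the 12333 promoters whose genes were tested. Windows are printed for Fos, Nr4a1 and Dusp1, whose regional differences were among the clearest, 5′ to 3′ on the gene's strand. The Fos and Nr4a1 windows end at the base before the start, and that of Dusp1 leaves out 47 bases that GENCODE places in an exon. Capitals mark the TGACG core or its reverse complement, the full palindrome TGACGTCA, and the Egr site GCGNGGGCG.
Fos, chr12:85473640-85473889, plus strand: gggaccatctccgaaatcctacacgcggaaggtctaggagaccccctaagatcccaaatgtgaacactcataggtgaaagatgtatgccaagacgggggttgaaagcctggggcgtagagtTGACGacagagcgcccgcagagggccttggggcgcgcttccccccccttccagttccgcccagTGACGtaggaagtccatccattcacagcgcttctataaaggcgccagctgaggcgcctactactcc
Nr4a1, chr15:101266596-101266845, plus strand: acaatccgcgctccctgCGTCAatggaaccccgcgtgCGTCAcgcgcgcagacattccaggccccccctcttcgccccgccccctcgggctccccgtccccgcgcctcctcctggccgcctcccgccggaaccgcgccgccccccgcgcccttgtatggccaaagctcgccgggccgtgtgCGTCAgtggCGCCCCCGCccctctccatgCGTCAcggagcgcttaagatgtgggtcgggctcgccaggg
Dusp1, chr17:26508520-26508722, minus strand: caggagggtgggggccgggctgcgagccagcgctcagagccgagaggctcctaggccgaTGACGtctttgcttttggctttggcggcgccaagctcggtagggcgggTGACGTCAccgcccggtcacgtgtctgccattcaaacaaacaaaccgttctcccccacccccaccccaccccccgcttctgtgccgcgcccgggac
Nr4a1 and Nr4a3 carried the core 4 times each, Dusp1 3 times, Fos and Npas4 2 times each and Fosb and Junb once. The full palindrome was present in Dusp1, 143 to 136 bases before the start. It occurred in 1.62% of all promoters and 2.64% of those of tested genes, and it overlaps 2 of the 3 cores counted there. The Egr site was found in Nr4a1 and Fosb and in 4.65% of all promoters and 8.60% of those of tested genes. The GC box GGGCGG was in 6 of the 7 windows and in 56.6% of the promoters of tested genes, and it overlaps the Egr site in Nr4a1 and Fosb. The TATA box TATAAA was in the Fos window alone and in 6.85% of the promoters of tested genes. The AP-1 site TGANTCA and the CArG box, the binding site of SRF, were in none of the 7 windows and in 6.87% and 1.40% of all promoters, or 4.33% and 1.22% of those of tested genes. Bases further upstream were not searched, and Egr1, Arc and Ier2 had no window. GENCODE transcripts that begin further upstream hold all 250 bases of the Npas4 window and 152 of those of Nr4a3 in exons. The annotated genes Nr4a1 and Dusp1 also begin upstream of their windows, at 101254269 and 26562128. These matches describe the letters of the windows and no binding was measured.

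All of the immediate early genes had a lower mean level in SNpc than in VTA. The difference passed the test for 7 of the 10, Nr4a1, Npas4, Fos, Egr1, Arc, Nr4a3 and Dusp1, and 0 were higher in SNpc (quasi-likelihood F test of edgeR, called at a Benjamini-Hochberg p under 0.05). Of all tested genes, 20.4% were called higher in VTA and 17.8% higher in SNpc. Fosb, Junb and Ier2 did not pass. The median log2 fold change of the 10 genes, SNpc minus VTA, was -1.19, against -0.04 over all genes tested. Differences both called and at least 2-fold were found for 6 of the 10 genes, against 10.2% of the tested genes, and 4 were called against a minimum change of 1.5-fold, against 7.31%. For 5 genes every VTA library lay above every SNpc library in CPM, the read count scaled to library size with TMM factors, which held for 14.6% of all genes. The summed CPM of the 10 genes was 39.8 to 68.4 in SNpc libraries and 134 to 153 in VTA libraries. In material of this kind, fewer cells that express a gene and less of its RNA per cell cannot be told apart.

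**Figure D1:**
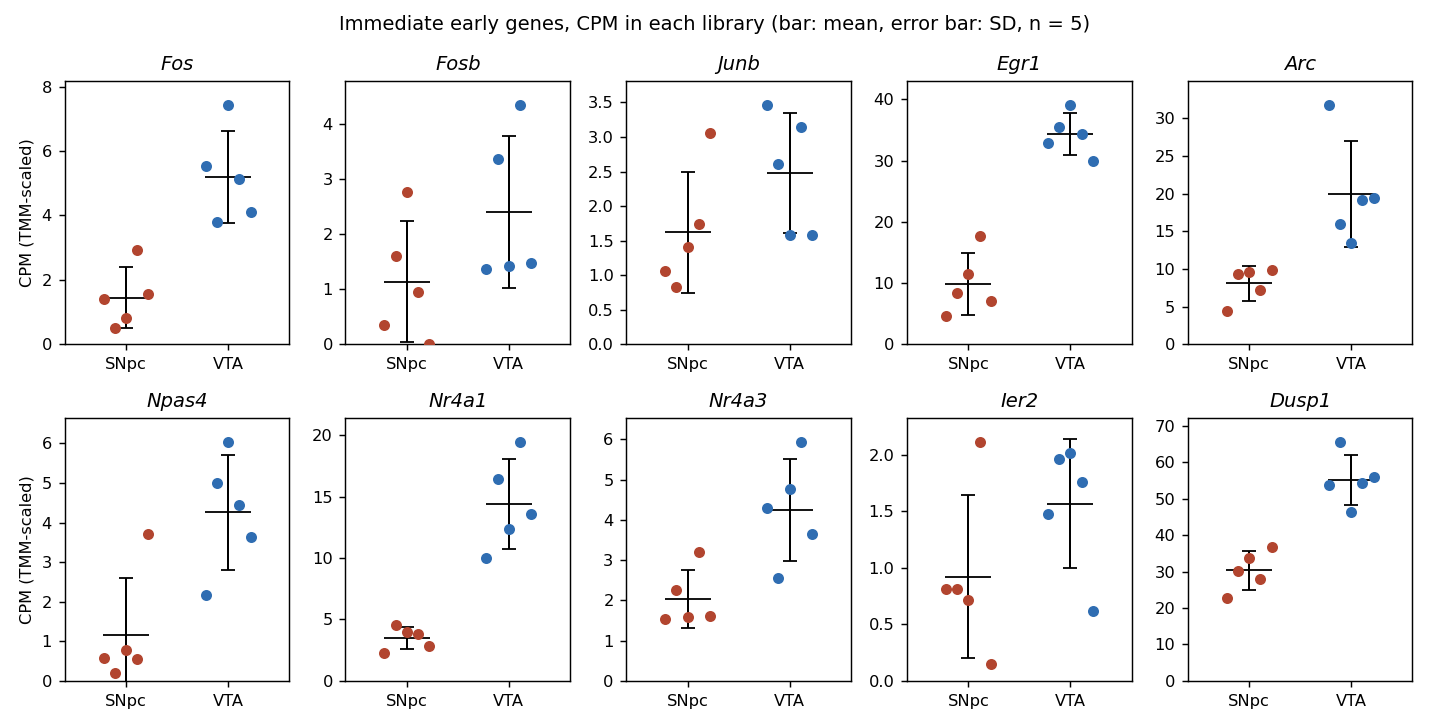
CPM of each immediate early gene (vertical axes, from 0, 1 scale per gene) in the 5 SNpc and 5 VTA libraries. Points are libraries in number order, the bar is the mean and the error bar the SD, limited at 0 by the axis. The regions are apart for Fos, Egr1, Arc, Nr4a1 and Dusp1 and overlap for the others, with SNpc library 6 (3.71 CPM) within the VTA points for Npas4.

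Among the 3 AP-1 genes of the set, Fos (Entrez 14281, mm10 chromosome 12, 85473890 to 85477273) was the only one to pass. Its values in SNpc libraries 1, 2, 3, 4 and 6 were 1.42, 0.489, 0.829, 2.94 and 1.57 CPM. In VTA libraries 1, 2, 4, 5 and 6 they were 5.54, 3.81, 7.43, 5.13 and 4.11 CPM. The regions did not overlap, and the highest SNpc value was that of library 4. The means were 1.45 ± 0.940 and 5.20 ± 1.43 CPM (SD, n = 5 each), which differed by -1.84 ± 0.45 on the log2 scale (SE, edgeR adjusted p = 0.00385).

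Fosb (Entrez 14282, chromosome 7, 19302696 to 19310051) had the largest SD of log2 CPM within regions of the set, to which a single 0 contributed. In SNpc it stood at 0.350, 1.61, 2.77, 0.944 and 0 CPM, and in VTA at 1.37, 3.37, 1.42, 4.35 and 1.48 CPM. The 0 in SNpc library 6 allows up to 0.0466 CPM at 3 counts of that library's total, for counting error only. The regions overlapped widely, and the log2 fold change of -1.08 ± 0.86 (SE) had a 95% interval from -2.89 to 0.73 (edgeR adjusted p = 0.345). That SD lay at the 98.0 percentile of all genes tested, while in CPM the coefficient of variation within SNpc was 96.9% for Fosb and 122% for Npas4. The log2 difference of Fosb was -1.72 without SNpc library 3, -0.76 without SNpc library 6 and -0.75 without VTA library 5, and not called in any of these.

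Junb (Entrez 16477, chromosome 8, 84974484 to 84978718) had 1.07, 0.831, 1.41, 1.74 and 3.06 CPM in SNpc and 3.46, 2.61, 1.58, 3.15 and 1.58 CPM in VTA. SNpc library 6 was above 3 of the 5 VTA libraries, so the regions overlapped. Its log2 fold change of -0.61 ± 0.49 (SE) had a 95% interval from -1.64 to 0.41 (edgeR adjusted p = 0.343). It was -0.97 without SNpc library 6, -0.45 without SNpc library 2 and -0.46 without VTA library 1, and not called in any of these. Exons of Junb overlap Prdx2 on the opposite strand, and without strand in the library reads of the pair may be mixed. Prdx2 itself, a peroxiredoxin at 213 CPM in SNpc and 139 CPM in VTA, was higher in SNpc (log2 fold change 0.61).

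Egr1 (Entrez 13653, chromosome 18, 34859823 to 34864984) was among the clearest. In SNpc it stood at 4.61, 8.39, 11.4, 17.7 and 6.99 CPM, and in VTA at 32.9, 35.4, 39.1, 34.3 and 29.9 CPM. The VTA libraries were close together, with a coefficient of variation of 9.79% against 51.4% in SNpc, where library 4 was highest. The means of 9.83 ± 5.05 and 34.4 ± 3.36 CPM (SD, n = 5 each) differed by -1.80 ± 0.27 on the log2 scale (SE, edgeR adjusted p = 1.19e-04).

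Npas4 (Entrez 225872, chromosome 19, 4984355 to 4990316) held few reads in most SNpc libraries, at 0.588, 0.212, 0.783, 0.563 and 3.71 CPM, or 37, 13, 50, 37 and 229 reads. VTA libraries held 2.18, 4.99, 6.04, 4.44 and 3.62 CPM. SNpc library 6 alone reached the VTA range, while 23 of the 25 pairings of a VTA with an SNpc library were higher in VTA. SNpc minus VTA came to -1.86 ± 0.62 on the log2 scale (SE, edgeR adjusted p = 0.0258). It was -2.98 without SNpc library 6, and the call ended without SNpc library 1, 3 or 4 or VTA library 2 or 4, with adjusted p between 0.0545 and 0.0628.

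Nr4a1 (Entrez 15370, chromosome 15, 101254269 to 101274795) had the largest estimate of the set in the test used here. Npas4 exceeded it without SNpc library 6 (-2.98 against -1.97) and with glial (-2.50 against -1.97) or vascular markers as a covariate (-2.43 against -2.18). Fos and Egr1 exceeded it without SNpc library 4 (-2.22 and -2.06 against -2.01). Without SNpc library 4 and VTA library 1 together Fos did (-2.20 against -2.13). With the replicate block Npas4 and Egr1 did (-2.46 and -2.04 against -1.98). SNpc libraries stood at 2.27, 4.51, 3.99, 3.84 and 2.86 CPM and VTA libraries at 9.99, 16.5, 12.4, 19.5 and 13.6 CPM. The libraries of the regions were far apart, with 4.51 CPM the highest in SNpc and 9.99 CPM the lowest in VTA. Means of 3.50 ± 0.907 and 14.4 ± 3.68 CPM (SD, n = 5 each) differed by -2.04 ± 0.25 on the log2 scale (SE, edgeR adjusted p = 1.11e-05).

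Nr4a3 (Entrez 18124, chromosome 4, 48045153 to 48086447) differed less, with 1.53, 2.27, 1.58, 3.20 and 1.62 CPM in SNpc and 4.29, 2.55, 4.77, 5.94 and 3.64 CPM in VTA. SNpc library 4 lay above VTA library 2, the sole overlap. The log2 difference of -1.06 ± 0.37 (SE, edgeR adjusted p = 0.0335) was the weakest of the calls. It ended when SNpc library 1, 3 or 6 was left out, or VTA library 1, 4 or 5 (adjusted p = 0.0528 to 0.104), and also with the length and GC trend removed and with glial or vascular marker covariates (adjusted p = 0.0982 to 0.204). Nr4a2, the third family member, went the other way, at 364 CPM in SNpc and 276 CPM in VTA (log2 fold change 0.40, edgeR adjusted p = 0.0108). The log2 ratio of Nr4a1 to Nr4a2 stood at -6.72 ± 0.540 across SNpc libraries and -4.28 ± 0.411 across VTA libraries (SD, n = 5 each), and that of Nr4a3 to Nr4a2 was -7.51 ± 0.593 and -6.06 ± 0.360. Both had the smallest p that 5 against 5 libraries can give (two-sided exact permutation test, p = 0.00794), but adjusted over the 55 gene pairs compared neither passed (adjusted p = 0.109).

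Ier2 (Entrez 15936, chromosome 8, 84661331 to 84662852) was the least abundant by CPM, at 0.811, 0.815, 0.720, 2.12 and 0.146 CPM in SNpc and 1.48, 1.96, 2.02, 1.76 and 0.616 CPM in VTA. The lowest library held 9 reads, and library 6 was lowest in either region. SNpc library 4 exceeded every VTA library. The log2 fold change of -0.76 ± 0.67 (SE) had a 95% interval from -2.18 to 0.66 (edgeR adjusted p = 0.399). It was -1.26 without SNpc library 4, -0.49 without SNpc library 6 and -0.27 with glial markers as a covariate, and not called in any of these.

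Of the genes that act outside transcription, Arc (Entrez 11838, chromosome 15, 74669083 to 74672570) stood at 4.44, 9.26, 9.55, 7.25 and 9.80 CPM in SNpc and 31.8, 16.0, 13.4, 19.1 and 19.5 CPM in VTA. All VTA libraries were above all SNpc libraries, with VTA library 1 highest. The means were 8.06 ± 2.26 and 19.9 ± 7.04 CPM (SD, n = 5 each), which differed by -1.31 ± 0.25 on the log2 scale (SE, edgeR adjusted p = 6.98e-04).

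Dusp1 (Entrez 19252, chromosome 17, 26505590 to 26562128) was the most abundant of the set. SNpc libraries stood at 22.8, 30.2, 33.8, 28.1 and 36.9 CPM and VTA libraries at 53.8, 65.7, 46.4, 54.2 and 56.1 CPM, with no overlap. SNpc minus VTA came to -0.86 ± 0.14 on the log2 scale (SE, edgeR adjusted p = 1.49e-04), so the smallest of the called differences was also measured most precisely. Annotated exons of Dusp1 overlap Ergic1 on the opposite strand. Ergic1, a protein of the early secretory pathway, was higher in SNpc (log2 fold change 0.31, edgeR adjusted p = 0.0451).

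**Figure D2:**
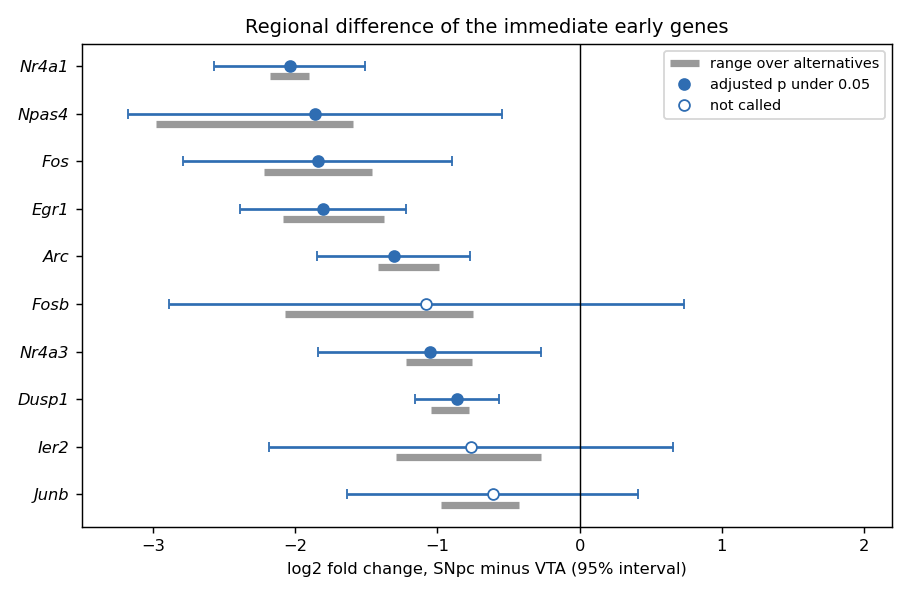
Log2 fold change (SNpc minus VTA, horizontal axis) of each immediate early gene with its 95% interval, filled where the adjusted p was under 0.05, and as a grey bar the range over 23 alternative analyses and the main value. All 10 estimates and all grey bars lie below 0, and the intervals of Fosb, Junb and Ier2 cross 0.

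Levels of different genes can be compared only per length. Divided by transcript length, Dusp1 reached 15.3 CPM per kilobase in SNpc and 27.8 in VTA. Egr1 followed at 2.19 and 7.66, Arc at 2.64 and 6.53 and Nr4a1 at 1.37 and 5.63 CPM per kilobase. The remaining 6 genes were at 0.300 to 0.895 CPM per kilobase in SNpc and 0.635 to 2.47 in VTA. By this measure Dusp1 lay at the 79.0 percentile of all genes with a known length, Egr1 at the 44.2 percentile and Fosb at the 11.9 percentile.

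The libraries of a region did not carry the genes in a common order. SNpc library 4 had the highest value of its region for Fos, Egr1, Nr4a3 and Ier2, whereas SNpc library 6 had the highest for Npas4, Junb, Arc and Dusp1 and the lowest for Fosb and Ier2. SNpc library 1 was lowest for 5 genes. In VTA library 4 was highest for Fos, Egr1, Npas4 and Ier2, and library 5 for Fosb, Nr4a1 and Nr4a3. After the region means were removed, 27 of the 45 gene pairs correlated positively over the 10 libraries, with a median Pearson's r of 0.21 and a range from -0.70 (Fosb with Npas4) to 0.70 (Fosb with Ier2). The 0 of Fosb and the high Npas4 of SNpc library 6 enter these extremes. Egr1 followed the mean of the other 9 genes most closely (r = 0.84), and Npas4 ran against it (r = -0.43). These values describe 10 libraries that share depth and scaling. The means that Egr1 and Npas4 were set against average unscaled log2 deviations, so genes of large SD weigh most in them. The SD of log2 CPM within regions was largest for Fosb (1.91), Npas4 (1.09) and Ier2 (1.04).

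**Figure D3:**
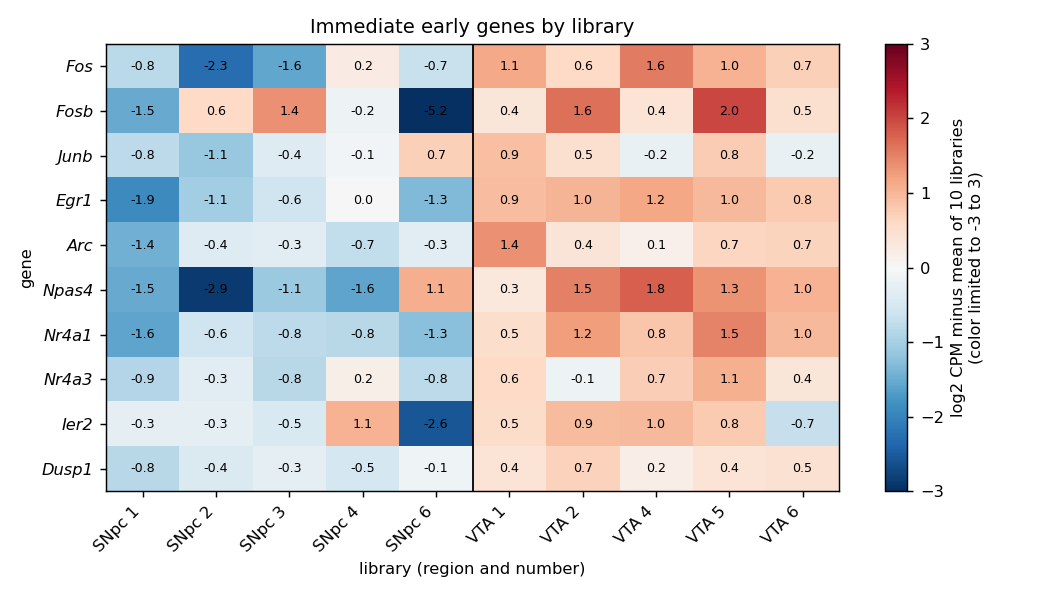
Log2 CPM of each immediate early gene (rows) in each library (columns) minus the gene's mean over the 10 libraries, in log2 units, with the color limited to -3 to 3. VTA libraries 1 and 5 were above the mean for all 10 genes and SNpc library 1 for 0, while SNpc libraries 4 and 6 were above it for 4 and 2.

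Ratios between the genes were also compared by region. Of the 45 pairs among the 10 genes, 0 passed after adjustment over all 55 pairs compared (two-sided exact permutation tests). With 5 libraries against 5 a pair can pass only if many pairs reach the smallest possible p, so this count says little about the ratios. Among them Nr4a1 to Dusp1 reached the smallest p the design allows, a log2 ratio of -3.13 ± 0.373 across SNpc and -1.97 ± 0.340 across VTA libraries (SD, n = 5 each, exact permutation p = 0.00794, adjusted p = 0.109).

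Outside the set, 9431 genes above a minimum level (mean log2 CPM 3) were ranked by how closely their deviations from the region means followed the mean deviation of the 10 genes. The 8 most alike were Appl2, Morn1, Htr2c, Cacna1i, Cdc73, Mmaa, Csrp1 and Ttc7b, with r from 0.94 to 0.86 over 10 libraries. None of them belongs to the immediate early genes. They include the serotonin receptor Htr2c and the T-type calcium channel Cacna1i, which had log2 fold changes of -1.08 and -2.15. The ranking chose these r values, so they are a description only. The mean deviation was also unscaled, so Fosb, Npas4 and Ier2, with few reads in some libraries, weigh most in it.

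Other immediate early transcription factors mostly did not pass the test. Of 23 listed, 21 could be tested. VTA was higher for 3 and SNpc for 1, and the list's median difference was -0.45. Of all tested genes 20.4% were called higher in VTA and 17.8% in SNpc. The counts of the lists below stand beside the same shares. Jun, the AP-1 partner of Fos, stood at 13.6 to 19.0 CPM in SNpc and 22.9 to 33.9 CPM in VTA (log2 fold change -0.74), and the clock gene Per1 at 33.1 to 43.2 and 44.8 to 60.8 CPM (-0.45). Egr4, a zinc finger relative of Egr1, was also called higher in VTA but held at most 0.820 CPM in any library. Nr4a2 was the gene higher in SNpc. Klf6, a zinc finger factor and among the most abundant, had a log2 fold change of 0.05 (edgeR adjusted p = 0.775).

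Rapidly induced regulators and feedback genes gave calls mainly in VTA. Among 31 genes VTA was higher for 14 and SNpc for 2, and the list's median difference was -0.98. Trib1, a pseudokinase, stood at 8.08 to 19.2 CPM in SNpc and 35.1 to 49.4 CPM in VTA (log2 fold change -1.81). Zfp36l2, an RNA-binding protein that promotes mRNA decay (-1.92), the CREB-induced kinase Sik1 (-1.42), and the antiproliferative factors Btg2 (-1.26) and Tob1 (-0.78) likewise did not overlap between the regions. Rgs2, a regulator of G protein signalling, was higher in SNpc (0.37), with overlapping libraries, at 135 to 199 CPM in SNpc and 113 to 159 CPM in VTA. The SNpc count fell to 1 without SNpc library 1 or 2 or VTA library 1, 2 or 6.

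Activity-regulated effector genes, which follow the early factors, gave calls in both directions. Among 22 genes SNpc was higher for 7 and VTA for 4, beside 17.8% and 20.4% of all tested genes. The list's median difference was 0.02. Nrn1, a membrane-anchored neuritin, stood at 198 to 232 CPM in SNpc and 72.0 to 121 CPM in VTA (log2 fold change 1.12). The LIM-domain factor Lmo4 (0.94), the GTPase Rheb (0.58), the granin Scg2 (0.31) and the synaptotagmin Syt4 (0.26) were higher in SNpc, whereas the potassium channel Kcna1 was higher in VTA (-1.26). The VTA count fell to 2 without VTA library 1, with the replicate block or with vascular markers as a covariate.

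**Figure D4:**
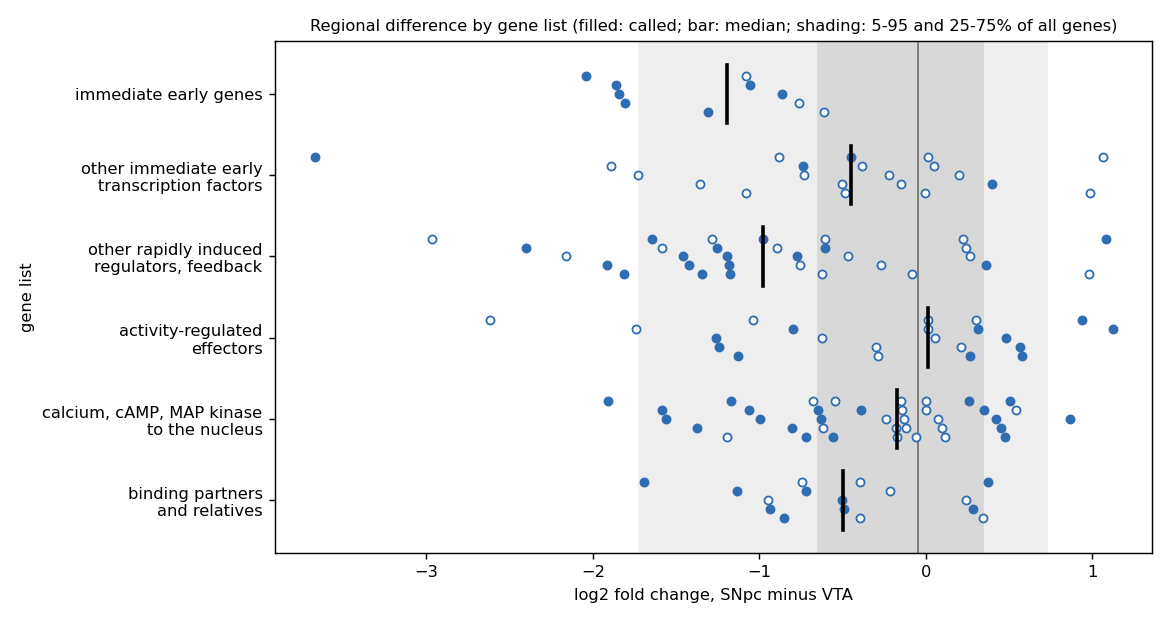
Log2 fold change (SNpc minus VTA, horizontal axis) of each tested gene in the set and in 5 lists of related genes. Filled points passed the test, black bars are list medians, and the shading spans the central 90% and 50% of all genes tested. The medians run from -1.19 for the immediate early genes to 0.02 for the activity-regulated effectors.

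Signalling genes that lead to the nucleus also gave calls in both directions. Among the 38 tested genes of the calcium, cAMP and MAP kinase list, VTA was higher for 13 and SNpc for 7. The shares of all tested genes were 20.4% and 17.8%, and the list's median difference was -0.17. The histone acetyltransferases Ep300 (log2 fold change -1.59) and Crebbp (-1.17), which act as coactivators of CREB, and the calcineurin-dependent factor Nfatc3 (-1.91) were higher in VTA. The stress-activated kinase Mapk9 was higher in SNpc (0.87), and Mapk10 had a log2 fold change of 0.08 (edgeR adjusted p = 0.507). Among 16 tested binding partners and relatives of the set, VTA was higher for 7 and SNpc for 2, and the median difference was -0.49. Atf7, a relative of the AP-1 factors (-1.69), the MAP kinase phosphatases Dusp7 (-0.93) and Dusp8 (-0.50), and Arnt, a bHLH-PAS partner (-1.13), were higher in VTA, and Dusp3 (0.37) and Atf2 (0.29) in SNpc. The SNpc count fell to 1 without SNpc library 6.

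Transcript length moved with the region in these libraries, and is therefore given beside the result. When genes were divided by length into 5 equal bins, the median difference ran from 0.34 for the shortest to -0.48 for the longest. All 10 immediate early genes lay below the median of their own bin. Fos, Junb, Nr4a1 and Dusp1 fell in bin 2 from the shortest, where the median was 0.15 and 8.38% of genes were called higher in VTA, and Ier2 fell in bin 1, with 4.83%. Arc and Npas4 fell in bin 3 (median -0.04, 15.9% called higher in VTA), Fosb and Egr1 in bin 4 (-0.16, 26.7%) and Nr4a3 in bin 5 (-0.48, 48.4%). Of the signalling genes and partners named above, Ep300, Crebbp, Nfatc3 and Atf7, called higher in VTA, also fell in bin 5. Mapk10, not called, did as well. With the length and GC trend removed and the scale kept, the log2 fold changes were -2.01 for Fos, -1.56 for Egr1, -2.10 for Nr4a1, -1.04 for Dusp1 and -1.24 for Arc, and Nr4a3 was no longer called.

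**Figure D5:**
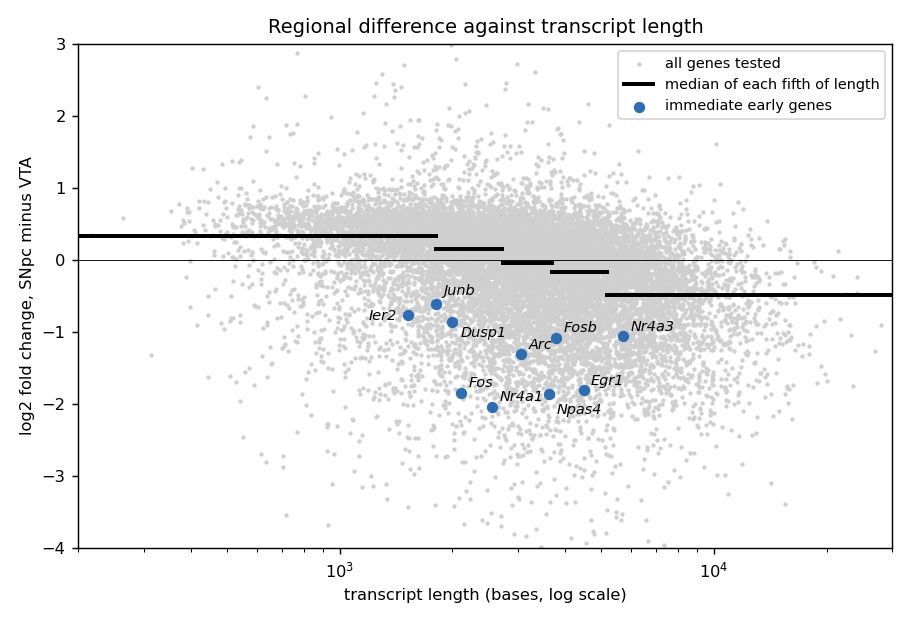
Log2 fold change (SNpc minus VTA, vertical axis) against transcript length in bases (log axis). Grey points are all tested genes with a known length within the axes, black lines the median of each of 5 length bins, and blue points the immediate early genes, which all lie below the line of their bin.

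Marker lists of the cells in the tissue are given beside the result, to be read against the 20.4% of all tested genes called higher in VTA and the 17.8% in SNpc. Among 15 dopaminergic markers SNpc was higher for 13 and VTA for 0, and the summed level was 13803 to 20084 CPM in SNpc and 7601 to 11143 CPM in VTA, and the part of this difference in the result was not tested. Th and Slc6a3, which define dopaminergic neurons, stood at 2637 to 4138 and 4230 to 5938 CPM in SNpc and at 1693 to 2643 and 1674 to 3116 CPM in VTA. Of 11 astrocyte markers 4 were higher in VTA and 0 in SNpc, with a summed level of 457 to 747 CPM in SNpc and 668 to 840 CPM in VTA. Of 8 markers of oligodendrocyte precursors 4 were higher in VTA (72.7 to 156 and 106 to 145 CPM), of 11 oligodendrocyte markers 1 (300 to 1503 and 765 to 948 CPM), and of 12 microglial markers 2, with 1 in SNpc (55.0 to 79.8 and 61.7 to 78.9 CPM). Endothelial markers gave 2 of 8 tested higher in VTA, at 21.8 to 33.9 CPM in SNpc and 27.1 to 145 CPM in VTA. Only VTA library 1 exceeded 33 CPM in VTA, and pericyte and fibroblast markers gave 3 of 10 (6.86 to 26.2 and 12.1 to 84.1 CPM). No marker of these lists had 0 reads in all libraries of a region.

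Of the other neuronal markers, those of glutamate neurons stood above the share of all genes. Glutamate neuron markers gave 4 of 7 higher in VTA, at 29.6 to 92.3 CPM in SNpc and 117 to 163 CPM in VTA, GABA neuron markers 1 of 7 higher in SNpc (300 to 566 and 320 to 415 CPM), and cholinergic and serotonergic markers 1 of 7 in SNpc (6.996 to 17.4 and 7.58 to 40.5 CPM). Red blood cell genes gave 0 of 3 called. Among the most abundant genes of these lists, Slc1a2 (-0.77), P2ry12 (-0.89), Pdgfrb (-2.86), Slc17a6 (-1.37) and Neurod6 (-2.38) were higher in VTA. SNpc library 4, which was highest of its region for 4 immediate early genes, had the highest oligodendrocyte sum of all libraries, 1503 CPM. Within SNpc it also had the highest astrocyte (747 CPM), GABA neuron (566 CPM) and glutamate neuron sums (92.3 CPM). Its dopaminergic sum was the lowest of SNpc (13803 CPM), and its microglial sum was not the highest. SNpc library 6 was also highest of its region for 4 immediate early genes. Its oligodendrocyte, astrocyte, GABA neuron and glutamate neuron sums were 421, 469, 371 and 31.1 CPM, and its dopaminergic sum was 18061 CPM. With glial markers as a covariate the log2 fold changes were -1.46 for Fos, -1.38 for Egr1, -1.97 for Nr4a1, -1.23 for Arc, -0.89 for Dusp1 and -2.50 for Npas4, all still called, and with vascular markers the same 6 were called. Without SNpc library 4 and VTA library 1 together, all 7 genes were called. The part of glutamate neuron RNA in the result was not tested.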

How the data were processed

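The data are deposited counts of reads per gene, whole numbers without normalization, in 12 columns. Reads were aligned with TopHat2 2.0.8 to mm10, per the submitters' processing notes, and cDNA was amplified with the NuGEN Ovation V2 kit, which does not mark strand, per the labels' protocols. No source used here gives the counting program, its annotation or its filters. Identical columns (0 genes at different counts, against chi-square values per gene of 43.1 to 148 for other pairs) were counted once, leaving 10 libraries of 62356964 to 81393907 counts. Nothing in the labels says that they are separate animals, and the p-values then reflect library-to-library spread only, which may be technical.

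edgeR 4.0.16 in R 4.3.3 was run on the whole table with filterByExpr, TMM scaling and a robust quasi-likelihood F test without covariates. Adjusted p-values are Benjamini-Hochberg over 15685 genes, and standard errors were derived from the F statistic. For log2 CPM the prior count was 2. DESeq2 1.42.0 was an alternative. The fit was tested on simulated data. Lengths, GC content and coordinates are from GENCODE M21, with the longest basic transcript matched by Entrez identifier for 20945 genes. The set and the gene lists were chosen with earlier results of these data known. Named are all 10 genes, from each related list the 4 of smallest p plus the 2 highest in abundance, Th and Slc6a3, and the 8 genes most like the set. Genes given with their values outside this rule are Prdx2 and Ergic1, which overlap members, and Crtc1, chosen after its values were seen. Of each other cell type's markers the rule takes the 2 most abundant, of which those higher in VTA are named, and some are not reported here.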

Additional observations from a re-analysis of the deposited data

Results flagged for a closer look

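Each of the 10 genes was examined in each region for a library far from the other 4, by Dixon's test at the 95% level, 20 groups in all, of which chance flags about 1. In 1 group a library stood apart. Npas4 was 3.71 CPM (3.705 before rounding) in SNpc library 6, and 0.212 to 0.783 CPM in the other SNpc libraries, and the gap took up 0.837 of the range, above the critical value of 0.710. In the same library Fosb had 0 reads and Ier2 had 9, the lowest of the region, while Junb was the highest.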

How the results depend on the processing

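All 10 genes kept a negative log2 fold change in all 23 alternatives, and 0 were called higher in SNpc in any. Fos, Egr1, Arc and Nr4a1 were called in every alternative. The number of genes of the set called higher in VTA was 5 to 7 when 1 library was left out, 6 with the replicate block, with either length and GC correction and with either marker covariate, 7 with RLE size factors, library totals, DESeq2, no filter, the stricter filter, the 12 columns as deposited and, chosen after seeing the data, without SNpc library 4 and VTA library 1 together. Against a minimum change of 1.5-fold it was 4 (Fos, Egr1, Arc and Nr4a1), where 7.31% of all genes passed, and the count of all genes fell to 94 higher in SNpc and 1146 in VTA. The count of all genes higher in SNpc was 1814 with the replicate block, 1765 with glial and 1704 with vascular markers as covariates. Leaving out 1 library gave 2284 to 3317 higher in SNpc and 2790 to 3193 in VTA. Crtc1, a CREB coactivator of the signalling list, turned from -0.39 to 0.03 (0.029 before rounding) with the length and GC trend removed and the scale refitted. The causes were not tested. The labels do not say whether libraries of the same number share an animal or a day. Same-numbered libraries had correlations of deviations from the region means of -0.07 to 0.04. These cannot decide whether samples are paired, as the number that each identical column belongs to is not known. The replicate block ended the call of Nr4a3 alone within the set. It moved Fosb to -2.08, still not called, and put Npas4 (-2.46) and Egr1 (-2.04) beyond Nr4a1 (-1.98). SNpc library 3 and VTA library 5 had no library of the same number in the other region. Under the block they therefore add nothing to the regional difference. They held the highest Fosb of their regions, 2.77 and 4.35 CPM. Fos, Fosb, Junb, Ier2 and Npas4 rest on few reads in some libraries, which limits the precision of their differences. SNpc library 2 held 30 reads of Fos and 51 of Junb.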
